A study of Mus musculus with 24 samples.

Results

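The genes examined here are Klf15 and 8 genes of branched-chain amino acid breakdown and of linked alanine and proline metabolism: Bcat2, Bckdha, Bckdhb, Bckdk, Dbt, Ppm1k, Prodh and Gpt2. They were fixed by name, with earlier results of these data known. A peak was counted at a gene when it overlapped the gene body by 1 bp or came within 10 kb of any of its curated RefSeq starts in mm10. These are 9 of 21000 protein-coding genes that were scored in the same way. H3K27ac is a histone acetylation found at active promoters and enhancers, and it was measured by ChIP-Seq in myofibers isolated from the quadriceps of male and female C57BL/6J mice that were 10 weeks old when dosing began. Vehicle-treated mice received DMSO in PBS, and weekly prednisone–treated mice received 5 weekly i.p. injections of 1 mg/kg and were sampled 4, 6 or 8 days after the last one. Per combination of sex with vehicle or day there were 2 libraries of H3K27ac and 1 of input. From these the authors deposited 1 peak list per combination, so each value below comes from a single list, has no replicate error and carries no test. The share of nuclei that carry the mark and the amount of mark per nucleus cannot be told apart in such material.

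Klf15 is a zinc finger transcription factor that glucocorticoids induce in muscle and that is known for turning on amino acid breakdown. In branched-chain amino acid breakdown, the mitochondrial aminotransferase Bcat2 first moves the amino group of leucine, isoleucine or valine to 2-oxoglutarate. The branched-chain 2-oxo acid dehydrogenase complex then commits the carbon skeleton to oxidation, under the control of an inhibiting kinase (Bckdk) and an activating phosphatase (Ppm1k). Gpt2 passes amino groups from glutamate to pyruvate to make alanine, and Prodh begins the oxidation of proline.

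The lists differed in ways that touch every value. H3K27ac depth ran from 7.52 megatags (male day 4) to 50.5 megatags (male day 6), and the number of peaks from 17482 (male day 4) to 123249 (female day 6). Peaks held between 5.39% and 47.3% of the tags of a list. A single peak on chromosome 2, near none of the 9 genes, had the most tags in each list, and without it these shares ran from 3.68% to 45.5%. For that reason a gene was placed by its percentile within its own list. This does not remove all differences between lists, since genes without a peak are ranked too and share 1 low percentile. That percentile was 22.3 in female vehicle, 9.88 in female day 6 and 26.5 in male day 4. The percentile of a gene with few tags thus also moves with the number of genes that have a peak. Ratios of tag sums between lists are sums over peaks called separately in each list, and for these genes they are given beside the covered length.

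The sequences below belong to the places where Klf15, Bcat2 and Prodh carried peaks, and they are shown because these places recur through the results. The first pair are the 250 bases before the transcription start of Klf15 (mm10, plus strand, chr6:90462326-90462575) and before the first start of Bcat2 (plus strand, chr7:45569903-45570152), taken from RefSeq GRCm38.p6 and printed 5′ to 3′. Capitals mark CACCC, the box that KLF proteins bind, and the GC box CCGCCC, each read on both strands, so that they also appear as GGGTG and GGGCGG.
Klf15 promoter: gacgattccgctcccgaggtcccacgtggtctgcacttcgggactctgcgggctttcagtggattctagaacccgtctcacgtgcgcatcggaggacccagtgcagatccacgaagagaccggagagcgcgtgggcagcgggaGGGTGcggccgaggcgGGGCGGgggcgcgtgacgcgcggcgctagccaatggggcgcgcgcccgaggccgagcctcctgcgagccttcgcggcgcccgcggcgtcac
Bcat2 promoter: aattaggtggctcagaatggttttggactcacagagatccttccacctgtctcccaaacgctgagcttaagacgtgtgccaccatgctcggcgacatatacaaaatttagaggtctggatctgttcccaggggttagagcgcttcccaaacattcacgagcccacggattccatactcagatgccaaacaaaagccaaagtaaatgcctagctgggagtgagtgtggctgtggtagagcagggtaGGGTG

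The Klf15 promoter was 72.0% G and C and held 1 CACCC box at position -107 and 1 GC box, while the Bcat2 promoter was 50.4% G and C and held 1 CACCC box at position -5. Promoter sequences were matched for 8 of the 9 genes, all but Dbt, at 10 curated starts. CACCC was present before 6 of the 10 starts, against 54.6% of 20488 starts of all protein-coding genes. The GC box was present before 4 of the 10, against 43.9% of all starts. The letters of these boxes can overlap, and a match is only a description of the sequence.

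The glucocorticoid receptor (GR) consensus ACANNNTGT, which is its own reverse complement, was absent from the promoter windows of Klf15 and Bcat2 and from all other windows but that of the second start of Bckdhb. Of all starts, 5.20% had it within 250 bases upstream. The next sequences are the places in Klf15 and Prodh introns where these letters (in capitals) lay in peaks of all 8 lists. They are the stretch at +1034 in the first intron of Klf15 (plus strand, chr6:90463590-90463638), the stretch at +8816 in its second intron (plus strand, chr6:90471372-90471420) and, for Prodh, the whole segment of its second intron that peaks of all 8 lists shared (minus strand, chr16:18083359-18083652). In the Prodh segment a CACCC box is in capitals as well, as GGGTG.
Klf15 intron at +1034: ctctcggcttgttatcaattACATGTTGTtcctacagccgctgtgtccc
Klf15 intron at +8816: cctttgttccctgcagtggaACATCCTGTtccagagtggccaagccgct
Prodh intron: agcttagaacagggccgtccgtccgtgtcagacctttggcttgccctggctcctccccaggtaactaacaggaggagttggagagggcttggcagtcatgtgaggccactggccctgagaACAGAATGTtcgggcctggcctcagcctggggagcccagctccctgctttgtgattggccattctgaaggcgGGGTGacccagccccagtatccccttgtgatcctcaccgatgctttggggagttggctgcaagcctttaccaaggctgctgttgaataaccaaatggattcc

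Klf15 carried H3K27ac in all 8 lists, and in weekly prednisone–treated females a single peak spanned nearly the whole gene. In female vehicle the gene (chromosome 6, 90462576 to 90479686, plus strand) had 4 separate peaks of 500 to 2001 bp, which lay in 31.3% of the gene span. At day 4 in females 1 peak ran for 16741 bp, from 1448 bp before the start to 15293 bp after it. The corresponding peaks were 18056 bp long at day 6 and 16655 bp long at day 8. Peaks covered 89.4%, 96.2% and 91.5% of the gene span at days 4, 6 and 8 in females. In males the peaks stayed separate in each list, and the widest was 4817 bp long in vehicle and 1787, 2247 and 2383 bp long on days 4, 6 and 8. The covered share of the gene in males was 56.6% in vehicle and 19.6%, 28.4% and 20.1% on these days.

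**Figure D1:**
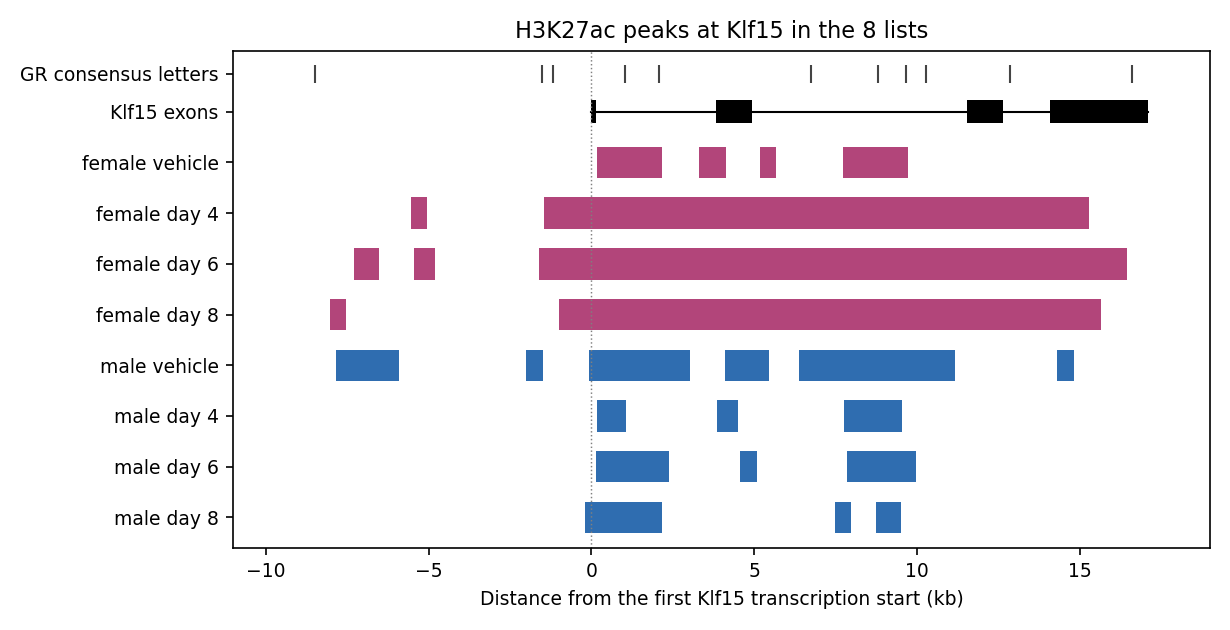
Peaks at Klf15 in each of the 8 lists (rows; pink, female; blue, male), drawn to scale by distance from the transcription start in kb, above which black boxes are exons and ticks are matches to the GR consensus letters. A single peak of 16655 to 18056 bp lies over nearly the whole gene in the 3 prednisone lists of females, and shorter separate peaks lie in the other 5 lists.

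By width, the long Klf15 peak was number 28 of 67503 at day 4, number 239 of 123249 at day 6 and number 151 of 81696 at day 8 in females. Its normalized tag count (tags per 10 megatags) was 369, 1313 and 991 on these days, and its fold over input was 5.43, 18.8 and 33.7. Its findPeaks score, which was not the number of tags in the peak, was near the lowest of its list on days 4 and 6. It was 24 at day 4, where the lowest score of any peak was also 24, and 12 at day 6 against a lowest score of 11. At day 8 its score was 29 against a lowest score of 16. When each list was reduced to its 17482 peaks of highest score, the long peak was lost at days 4 and 6 and kept at day 8. No Klf15 peak of any kind was then left in female day 4, so its presence in all 8 lists did not hold there.

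Peaks of at least 10 kb, a width chosen after the values were seen, were rare among genes. In females on prednisone they were found at 2 of the 9 genes at day 4 (Klf15 and Gpt2), against 0.952% of all genes. At day 6 they were found at 3 (Klf15, Bcat2 and Gpt2), against 6.41%, and at day 8 at 2 (Klf15 and Gpt2), against 3.38%. None of the 9 genes had such a peak in female vehicle, where 0.00476% of genes had one. The same held in male vehicle (0.133% of genes), male day 4 (0.0143%), male day 6 (0.00952%) and male day 8 (0.00476%).

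In Klf15, 3 stretches lay inside peaks of every list. They were the stretch from 174 to 1072 bp after the start (90462750 to 90463648), in the first intron, and the stretches from 7862 to 7982 bp (90470438 to 90470558) and from 8754 to 9521 bp (90471330 to 90472097), in the second intron. The stretch nearest the start held 1 match to the GR consensus, 6 CACCC boxes and 3 GC boxes in 899 bases. Windows of 899 bases centered on female vehicle peaks held the GR consensus in 27.1% of cases, CACCC in 77.6% and the GC box in 17.2%. In windows of that length on male day 4 peaks these shares were 19.1%, 88.9% and 42.0%. The stretch farthest from the start held 1 match to the GR consensus in 768 bases and no CACCC or GC box, and 23.8% of windows of that length centered on female vehicle peaks held the GR consensus, against 16.3% on male day 4 peaks.

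Over the gene and its 10 kb flank, Klf15 had 11 matches to the GR consensus in 27.1 kb, or 0.406 per kb. The other 7 genes that were searched had between 0.250 (Bckdk) and 0.473 (Prodh) per kb. In females 4 of the 11 Klf15 matches lay in a vehicle peak, and 8, 9 and 7 lay in a peak on days 4, 6 and 8. In males 7 lay in a vehicle peak, and 2, 4 and 3 lay in a peak on these days. These counts had the same order within each sex as the summed width of the Klf15 peaks. That width was 5344 bp in female vehicle and 17241, 19467 and 17155 bp on days 4, 6 and 8. In males it was 12180 bp in vehicle and 3352, 4851 and 3650 bp on these days. Whether the matches lay in peaks more often than other bases was not tested.

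The level of Klf15 within its own list was high in every group. The normalized tag counts of all its peaks summed to 110 in female vehicle (95% counting interval 98.4–124), then to 376 (359–393), 1338 (1298–1380) and 998 (967–1029) on days 4, 6 and 8. In males the sums were 381 in vehicle (359–403), then 114 (91.5–141), 103 (94.4–112) and 71.3 (62.4–81.3). As percentiles among all genes of the same list these were 96.9, 98.5, 97.4 and 98.7 in females and 97.5, 97.4, 97.0 and 96.1 in males. The tag sums thus spanned a wide range, but the place of Klf15 among the genes of its list stayed between 96.1 and 98.7. With 1 list per group the order of such close percentiles has no error to be read against.

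**Figure D2:**
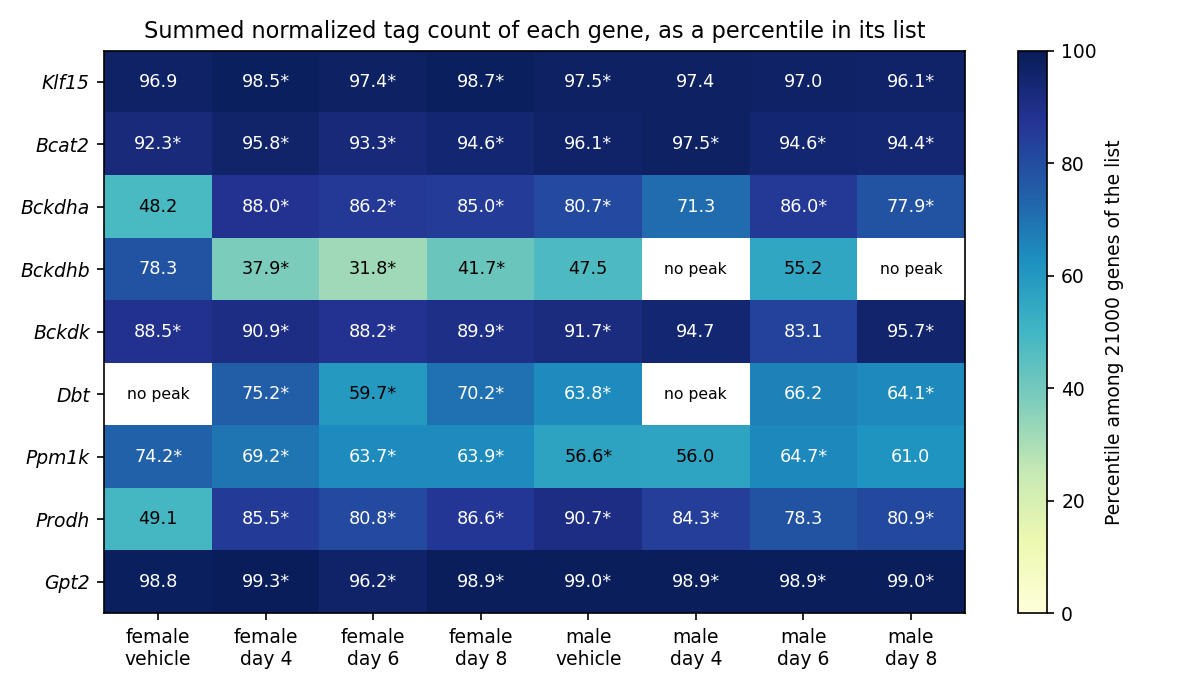
Each cell gives a gene's summed normalized tag count as a percentile among the 21000 protein-coding genes of that list (color scale, 0 to 100), and an asterisk marks a gene with a start-site peak. Klf15 and Gpt2 stay above the 96th percentile in all 8 lists, Bcat2 stays above the 92nd, and Bckdhb and Dbt have lists with no peak.

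At the start site itself, taken from 1 kb before to 100 bp after the start, Klf15 had a peak in females at days 4, 6 and 8 and in males in vehicle and at day 8. In the other lists the nearest peak began just downstream, 166 bp after the start in female vehicle, 174 bp in male day 4 and 144 bp in male day 6. A wider window of 2 kb on each side of the start takes in these peaks. Where Klf15 had a start-site peak, its percentile among all genes with one was 99.7, 99.2 and 99.7 at days 4, 6 and 8 in females, 93.2 in male vehicle and 93.3 in male day 8. By tags per kb of peak instead, the Klf15 percentile was 76.3, 79.4, 94.9, 67.7 and 79.6 in these lists. By highest fold over input it was 34.6 at day 4 in females and between 45.2 and 87.5 in the other 4.

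The genes whose start-site percentiles over the 8 lists were most like those of Klf15 were Ulk1 (Pearson r = 1.000), St6galnac6 (r = 0.999) and Ramp2 (r = 0.998), out of 9818 genes compared. A list without a start-site peak counted as 0 in this measure, so it mainly reflects which lists have such a peak, and the 8 points share the depth and peak number of their lists. Among the genes of the pathway the most like Klf15 were Dbt (r = 0.782) and Gpt2 (r = 0.758). No likeness of function is implied by this.

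Bcat2 (chromosome 7, 45570153 to 45589710, plus strand), the first enzyme of the pathway in muscle, had a start-site peak in all 8 lists and was the only one of the 9 genes to do so. Its summed percentile was 92.3, 95.8, 93.3 and 94.6 in females from vehicle to day 8, and 96.1, 97.5, 94.6 and 94.4 in males. A stretch from 147 bp before to 353 bp after its first start (45570006 to 45570506) lay in a peak of every list. In female vehicle this was a peak of 500 bp, with a normalized tag count of 10.9. On days 4, 6 and 8 in females the peak over it was 6526, 11044 and 8048 bp long, with normalized tag counts of 166, 601 and 363. In males the peak over it was 2003 bp long in vehicle and 1909, 2824 and 1588 bp long later. An upstream region, from 45559681 to 45563757, was in the 4 female lists and in male vehicle and had no peak in the later male lists.

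Bckdha, Bckdhb and Dbt encode the E1 alpha, E1 beta and E2 parts of the branched-chain 2-oxo acid dehydrogenase complex. These 3 genes ranked lower than Bcat2 and differed from each other. Bckdha (chromosome 7, 25629852 to 25658761, minus strand) had summed percentiles of 48.2 in female vehicle and 88.0, 86.2 and 85.0 at days 4, 6 and 8. In males its percentiles were 80.7 in vehicle and 71.3, 86.0 and 77.9 later. It had 1 peak of 500 bp in female vehicle, with 20 tags, and 3, 9 and 8 peaks at days 4, 6 and 8. The start of Exosc5 lies 392 bp from that of Bckdha in the opposite direction, so their start-site peaks cannot be told apart.

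Dbt (chromosome 3, 116513070 to 116549981, plus strand) had no peak in female vehicle and none in male day 4. This says only that no peak was called there, since tags below the threshold for a peak are not in a list. In the other female lists its percentiles were 75.2, 59.7 and 70.2, each with a start-site peak. In males it was 63.8 in vehicle, 66.2 at day 6 and 64.1 at day 8, and the start-site peak was found in vehicle and at day 8. The start of Rtca lies 4895 bp away and inside the Dbt window.

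Bckdhb (chromosome 9, 83925137 to 84124240, plus strand), the longest of the genes, had summed percentiles of 78.3, 37.9, 31.8 and 41.7 in females from vehicle to day 8. In males it stood at 47.5 in vehicle and 55.2 at day 6 and had no peak on the other days. From vehicle to day 6 its tag sum went from 31.3 to 34.6 in females and from 40.2 to 5.93 in males. Percentile and sum thus moved in opposite directions there. Bckdhb had 3, 2, 2 and 3 peaks in females from vehicle to day 8, and 3, 0, 1 and 0 in males. Peaks lay over less than 1% of its span in every list (0.830% at most). A start-site peak was present in females at days 4, 6 and 8, with normalized tag counts of 5.31, 28.1 and 25.2. These values stood at percentiles 1.96, 17.2 and 18.6 of the genes with a start-site peak. The 3 female vehicle peaks lay near the far end of the gene, the nearest of them 188253 bp from the first start.

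The regulators of the complex differed in level. Bckdk (chromosome 7, 127904073 to 127909664, plus strand), the kinase that switches it off, had summed percentiles of 88.5, 90.9, 88.2 and 89.9 in females from vehicle to day 8, and 91.7, 94.7, 83.1 and 95.7 in males. At day 6 in females its peaks covered 100% of the gene, against 21.6% in female vehicle. Its window also takes in the starts of Vkorc1 and Kat8, and the segment shared by all 8 lists downstream of Bckdk (127911872 to 127912372) lies closer to Kat8. A start-site peak of Bckdk was found in the 4 female lists, male vehicle and male day 8.

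Ppm1k (chromosome 6, 57506502 to 57535487, minus strand), the phosphatase that switches the complex on, had percentiles of 74.2, 69.2, 63.7 and 63.9 in females and 56.6, 56.0, 64.7 and 61.0 in males. It had 1 or 2 peaks in every list. In all but male day 4 a peak lay at or close to the start. In male day 8 that peak began 623 bp after the start, outside the start-site window.

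Prodh (chromosome 16, 18071726 to 18089190, minus strand) had 1 peak in female vehicle, of 500 bp in the second intron with 21 tags, which includes the segment printed above. On days 4, 6 and 8 in females the peak over this place was 5390, 6101 and 6979 bp long. A separate start-site peak was present on these days. The summed percentile of Prodh was 49.1 in female vehicle and 85.5, 80.8 and 86.6 at days 4, 6 and 8. In males it was 90.7 in vehicle and 84.3, 78.3 and 80.9 later. The shared segment held 1 GR consensus match, as did 3887 of 38839 windows of 294 bases centered on female vehicle peaks and 1100 of 17462 centered on male day 4 peaks.

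Gpt2 (chromosome 8, 85492576 to 85528902, plus strand) had the highest percentiles of the 9 genes in 7 of the 8 lists, and Klf15 exceeded it at day 6 in females. In females its percentiles were 98.8, 99.3, 96.2 and 98.9, and in males 99.0, 98.9, 98.9 and 99.0. Most of its peaks lay inside the gene, far from the start. In female vehicle 7 peaks were found, none at the start, and the widest was 2608 bp. Female lists after prednisone had peaks of 15185 bp (day 4), 15952 bp (day 6) and 15565 bp (day 8) in the gene body, and a start-site peak on each day. In males the widest peak was 6916 bp in vehicle and 1525, 3353 and 2747 bp later, with a start-site peak in all 4 lists. A pair of intronic stretches, from 25186 to 25280 bp and from 30845 to 31554 bp after the first start, were inside a peak of all 8 lists.

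**Figure D3:**
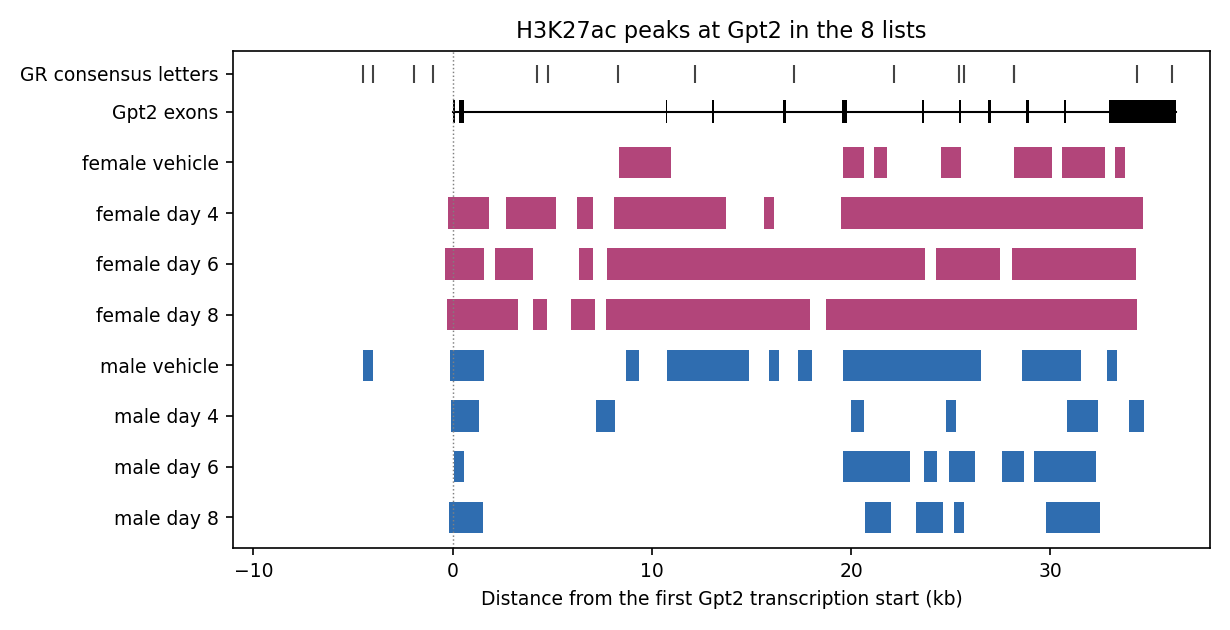
Peaks at Gpt2 in each of the 8 lists (rows; pink, female; blue, male), drawn to scale by distance in kb from the first transcription start, with exons as black boxes and ticks for GR consensus letters. Long peaks fill much of the gene body in females at days 4, 6 and 8, and a start-site peak is missing only in female vehicle.

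The widths of peaks differed between the sexes in the same way at several genes. The share of the gene span inside peaks was higher at days 4, 6 and 8 than in vehicle in females at Klf15, Bcat2, Bckdha, Bckdk, Dbt, Ppm1k, Prodh and Gpt2, and lower than in vehicle at all 3 days in males at these 8 genes and Bckdhb. For Gpt2 it was 27% in female vehicle and 72.8%, 81.3% and 85.3% later, against 49.2% in male vehicle and 15.8%, 27.5% and 20.4% later. For Prodh it was 2.87% in female vehicle and 45.8%, 71.2% and 50.8% later, against 46.3% in male vehicle and 3.70%, 9.32% and 6.45% later. All peaks of a list together covered 26.8 megabases in female vehicle and 71.1, 159 and 110 megabases at days 4, 6 and 8. In males they covered 66.4 megabases in vehicle and 12.7, 26.7 and 17.0 megabases later, so the total moved in the same direction as these genes.

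**Figure D4:**
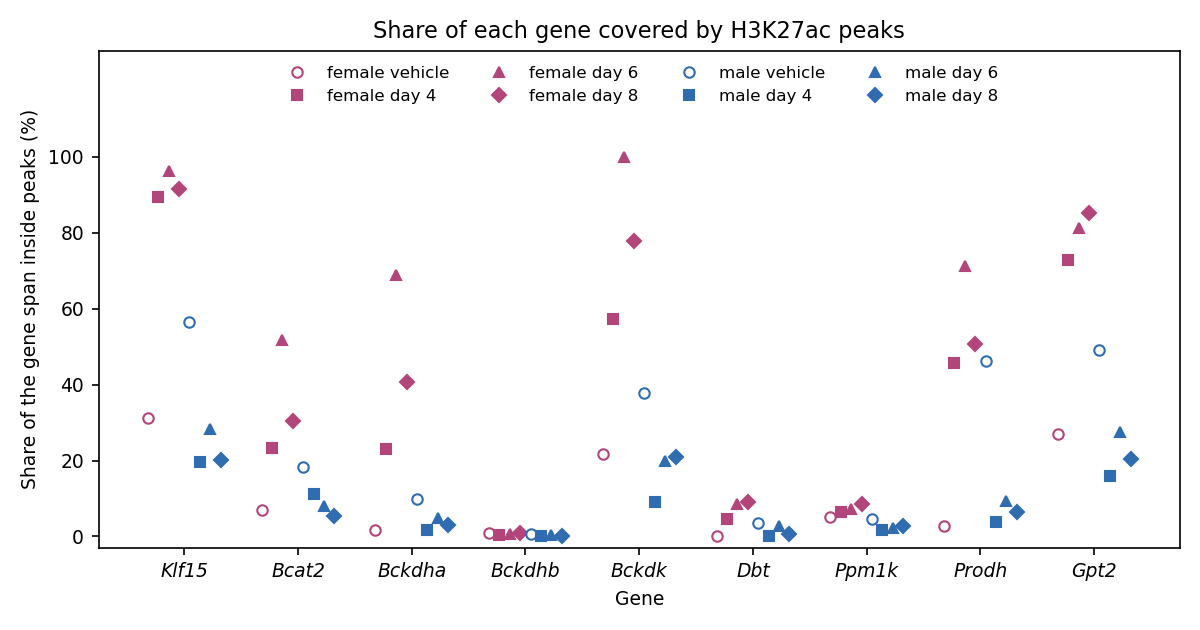
Points give the share of each gene's span (%, vertical axis) that lies inside peaks, 1 point per list (pink, female; blue, male; open circles, vehicle; squares, triangles and diamonds, days 4, 6 and 8). Prednisone lists of males lie below vehicle at every gene, and those of females lie above vehicle at every gene but Bckdhb, where all values are under 1%.

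Counted over all 9 genes, a peak was found at 8 genes in female vehicle and at 9 on each later day in females, against 55.3%, 72.8%, 80.2% and 75.0% of all genes. In males it was found at 9 genes in vehicle and at 7, 9 and 8 later, against 77.0%, 46.9%, 51.6% and 50.0% of all genes. A start-site peak was found at 3 genes in female vehicle (background 24.4%) and at 9 at day 4 (51.0%), day 6 (66.8%) and day 8 (59.7%). The corresponding male lists had one at 8 genes in vehicle (48.9%), then 3 on day 4 (27%), 4 on day 6 (28.1%) and 7 on day 8 (31.9%). With lists of equal length the start-site count in females was 3 in vehicle, against 18.8% of all genes, and 5, 3 and 6 on days 4, 6 and 8, against 30.2%, 30.9% and 30.4%. In males it was then 6 in vehicle (27.5%) and 3, 4 and 7 on these days, against 27%, 24.9% and 31.3%, so that the day 8 count was above that of vehicle.

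Between vehicle and day 4, a start-site peak was gained in females at 6 genes (Klf15, Bckdha, Bckdhb, Dbt, Prodh and Gpt2), against 27.4% of all genes, and lost at none, against 0.843%. In males it was gained at none, against 2.11%, and lost at 5 (Klf15, Bckdha, Bckdk, Dbt and Ppm1k), against 23.9%. Klf15 appears on both lists partly through peaks that began within 174 bp of its start but outside the window. These counts changed when the lists were of equal length, an alternative chosen after seeing the data. A start-site peak was then gained in females at 2 genes (Prodh and Gpt2), against 17.8% of all genes, and lost at none, against 6.42%. In males it was then gained at 1 (Prodh), against 10.3%, and lost at 4 (Bckdha, Bckdk, Dbt and Ppm1k), against 10.7%. With a window of 2 kb on each side of the start, also chosen after seeing the data, females gained 4 (Bckdhb, Dbt, Prodh and Gpt2), against 26.1% of all genes, and lost none, against 1.66%. Males then gained none, against 1.84%, and lost the same 4 as with equal lists, against 27%. Klf15 was among neither the gains nor the losses under both alternatives. With equal lists this was because it had no start-site peak in the vehicle and day 4 lists of either sex. In female day 4 it then had no peak at all.

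**Figure D5:**
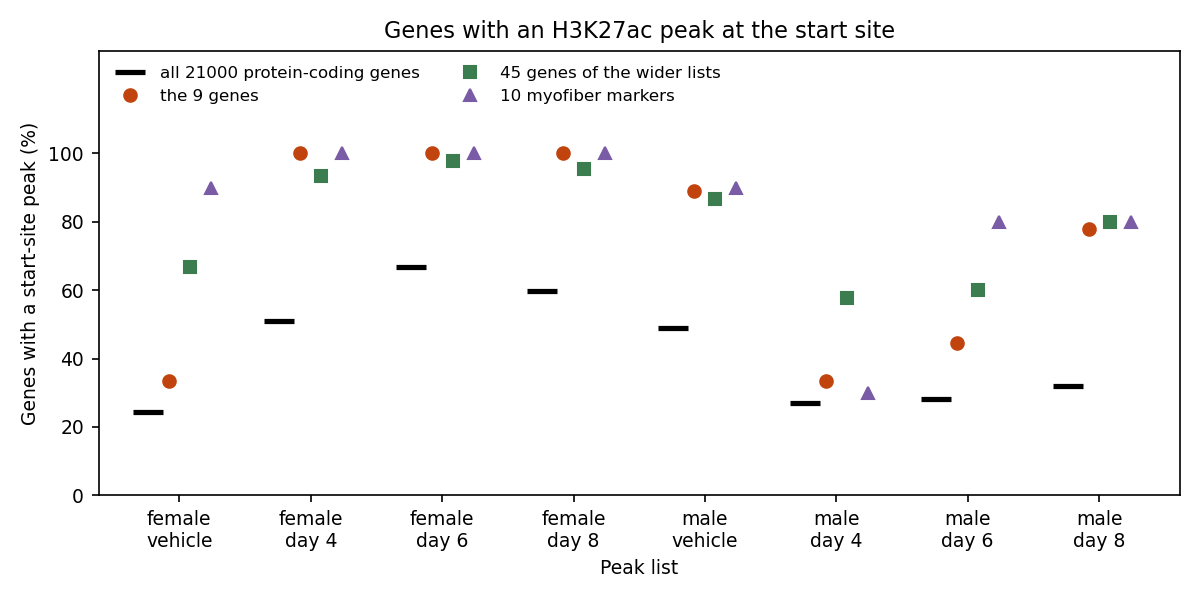
Share of genes with a start-site peak (%, vertical axis) in each list for all 21000 protein-coding genes (bars), the 9 genes (circles), the 45 genes of the wider lists (squares) and 10 myofiber markers (triangles). All 9 genes have one in females at days 4, 6 and 8, and 3 have one in female vehicle and in male day 4.

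The study asked which H3K27ac peaks appear after prednisone, and a gained peak was defined as a day 4 peak that no vehicle peak of the same sex overlapped by 1 bp. In females 23 of the 34 day 4 peaks at these genes were gained (67.6%), against 81.9% of all day 4 peaks. Of the 23, 19 overlapped a day 6 peak, against 50.3% of all gained peaks, and 15 overlapped a day 8 peak, against 43.6%. All of these comparison shares include peaks far from genes, so the 2 sets are unlike. At all genes the gained share was 55.0% within 2 kb of a start and 80.2% within 50 kb or the gene span. At the 9 genes it was 50.0% and 73.4%. The gained female peaks of highest score lay at the start of Gpt2 (chromosome 8, 85492371 to 85494400, score 43), upstream of Dbt (chromosome 3, 116507887 to 116508904, score 39) and upstream of Bckdk (chromosome 7, 127894648 to 127895779, score 37). Each of these was also found at days 6 and 8. The start of Rtca lies inside the second of these peaks and the start of Vkorc1 inside the third, so these peaks cannot be assigned to Dbt or Bckdk. The long Klf15 peak is not among the gained peaks, since it overlaps vehicle peaks.

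In males 6 of the 19 day 4 peaks at these genes were gained (31.6%), against 45.4% of all day 4 peaks. They lay at Bcat2 and Gpt2 (2 each), Bckdha and Ppm1k, and none was at a start site. None was found at day 6, against 5.84% of all gained male peaks, or at day 8, against 5.01%. The male gains of highest score were in Ppm1k introns (chromosome 6, 57532620 to 57533120, score 9) and near the end of Gpt2 (chromosome 8, 85526548 to 85527252, score 8), ahead of 4 with a score of 7. With lists of equal length 8 of the 14 day 4 peaks at these genes were gained in females, against 71.3% of all day 4 peaks, and 11 of 19 in males, against 69.4%. The male day 4 list is the shortest and stays whole, so only the male vehicle list became shorter there.

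Merging the peaks of all lists at these genes gave 56 regions. Of these 5 held a peak of every list: those over the starts of Klf15, Bcat2, Bckdk and Prodh, and a region of 27491 bp inside Gpt2. Another 30 regions were in a single list. Regions with peaks of female lists only numbered 22, and 13 held peaks of male lists only. Merged in the same way at all 21000 genes, where a region near several genes counts for each, 2.88% of regions were in all 8 lists, 63.4% in a single list, 56.8% in female lists only and 19.1% in male lists only. By place 9 regions covered a start site, 30 were in introns, 13 upstream and 4 over exons. Bckdhb had the most regions, 11, of which 9 were in 1 list. Without the male day 4 list, the one of least depth, 7 regions were in all of the other 7 lists, against 3.70% of the regions at all genes.

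Another 45 genes were scored at the start site, in 3 lists of metabolism and transport and 1 of KLF genes. In females 30 had a start-site peak in vehicle and 42, 44 and 43 on days 4, 6 and 8. In males 39 had one in vehicle and 26, 27 and 36 later. The shares of all genes given above were likewise higher at day 4 than in vehicle in females and lower in males. A start-site peak in all 8 lists was found at 12.6% of all genes.

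Of 19 genes of the later steps of branched-chain breakdown, 14, 19, 19 and 19 had a start-site peak in females from vehicle to day 8, and 18, 9, 9 and 16 in males. Those with one in all 8 lists were Hadha and Hadhb, the parts of the mitochondrial trifunctional protein, Mmut, which isomerizes methylmalonyl-CoA, and Pccb, a subunit of propionyl-CoA carboxylase. By summed tags of all its peaks, Hadhb stood at percentiles 96.1, 94.9, 78.2 and 89.5 in females and 73.5, 93.9, 95.1 and 89.5 in males. Of 6 transport genes, Mpc1 and Mpc2, which form the mitochondrial pyruvate carrier, and Slc3a2 and Slc43a1 of amino acid transport had one in all 8 lists. None of the 8 genes of alanine, glutamate and proline handling did.

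Of 12 KLF genes other than Klf15, 6 had a start-site peak in all 8 lists, among them Klf13, Klf16, Klf3, Klf6 and Klf7. Klf12 had none in any list. By summed tags of all peaks, and not by start-site peaks, Klf13 and Klf9 ranked above Klf15 in each list. Their percentiles among all genes were 99.6 to 100 and 99.2 to 100. By the same measure Klf7 ranked above Klf15 in 5 of the 8 lists, female vehicle (99.4), female day 4 (98.6) and the male lists of days 4, 6 and 8 (97.8, 99.7 and 97.9). Klf6 did so in female vehicle (97.0), male day 6 (98.1) and male day 8 (96.3), Klf3 in male day 6 (97.8) and Klf10 in male day 8 (96.4).

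Myofiber identity was checked at 10 myofiber markers, which had a start-site peak in 9, 10, 10 and 10 cases in females and 9, 3, 8 and 8 in males. Their peaks summed to 892 normalized tags in female vehicle and to 2976, 9517 and 7718 on days 4, 6 and 8. In males they summed to 2859 in vehicle and to 689, 822 and 776 on these days. Of 20 markers of satellite, endothelial, fibro-adipogenic, smooth muscle, leukocyte, adipocyte and liver cells, 2, 8, 12 and 14 had a start-site peak in females from vehicle to day 8, and 7, 1, 3 and 0 in males. Their summed normalized tags were 242 in female vehicle and 968, 5166 and 2490 later, and 1541 in male vehicle and 230, 305 and 147 later. Those of the 9 genes ran from 479 to 5283 in females and from 394 to 1932 in males. They were lowest in vehicle in females and highest in vehicle in males. The leukocyte markers Ptprc, Adgre1 and Csf1r and the liver markers Alb and Ttr had no start-site peak in any list. By summed tags, markers of other cells and of myofibers thus both moved in the same direction as the 9 genes. The share of all genes with a start-site peak, given above, also moved that way. The part of other cells in these results was not tested.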

How the data were processed

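H3K27ac ChIP-Seq came from 16 H3K27ac and 8 input libraries of quadriceps myofibers in 8 groups. Reads were trimmed by the authors (homerTools) and mapped to mm10 using Bowtie2 2.2.6, and HOMER findPeaks then gave the peaks in its histone style, against input, at a fold of at least 2. The 8 deposited lists are 1 per group, and how the 2 libraries were combined is not given in the sources used here. The deposited normalized tag count is a signal scaled to 10 megatags, the deposited findPeaks score is not scaled for depth, and the deposited fold is a ratio over input. Depth was recovered from the steps between low tag counts, and 100% of the distinct values below 100 came out as whole tags, within the rounding of the printed value (0.256 tags at most).

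Genes were 21000 protein-coding genes of RefSeq GRCm38.p6 (mm10) with a curated start. A gene's level is the sum of the normalized tag counts of its peaks, and its percentile is taken among all of these genes in the same list. Poisson 95% intervals of tag counts cover counting error only. The 9 genes, the wider lists and the marker lists were chosen with earlier results of these data known. All 9 genes were named, with the genes of each wider list that had a start-site peak in all 8 lists or in none (up to 5 each, by symbol), the 3 genes most like Klf15, the regions in most lists and the day 4 gains of highest score. Overlaps with gene windows were tested on simulated data against bedtools 2.31.1 (400 of 400 windows the same). A separate check without bedtools found 400 of 400 planted gains. These lay on a chromosome without peaks in the other list, so peaks that only just miss each other were not tested. Python 3.11.15, numpy 2.4.6, pandas 2.3.3, pysam 0.24.0, samtools 1.23.1 and matplotlib 3.10.9 were used.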

Additional observations from a re-analysis of the deposited data

Results flagged for a closer look

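Summed normalized tag counts were above vehicle at all 3 days in females and below vehicle at all 3 days in males at 7 of the 8 genes with peaks in both vehicle lists. Each direction rests on 1 list per group, so the difference between the sexes was not tested. The sums are over peaks called separately in each list, so they move with the called length and with tags per kb of peak. Widths and tags per kb are given below at day 4. On days 6 and 8, tags per kb were above vehicle at each of these 7 genes in females and below vehicle in males.

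The ratio of day 4 to vehicle at Klf15 was 3.40 in females and 0.300 in males. The summed width of its peaks went from 5344 to 17241 bp in females and from 12180 to 3352 bp in males. Tags per kb of peak went from 20.7 to 21.8 in females and from 31.2 to 34.1 in males. On days 6 and 8, Klf15 had 68.8 and 58.2 tags per kb in females and 21.3 and 19.5 in males. At day 4 the summed width moved in the same direction as the tag ratio at all 7 genes. For Bcat2 the ratios were 3.35 and 0.379, with 3435 and 11510 bp (19.8 and 19.7 tags per kb) in females and 10864 and 3249 bp (28.4 and 36.0 tags per kb) in males. Gpt2 had ratios of 2.94 and 0.280, with 9797 and 26627 bp (17.9 and 19.4 tags per kb) in females and 18523 and 5786 bp (29.8 and 26.7 tags per kb) in males.

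Bckdha had ratios of 16.6 and 0.197, from 20 tags in female vehicle. Its width went from 500 to 7926 bp in females (14.5 and 15.2 tags per kb) and from 3977 to 500 bp in males (30.6 and 47.8 tags per kb). Prodh had ratios of 13.8 and 0.231, from 21 tags in female vehicle, with 500 and 8408 bp (15.3 and 12.6 tags per kb) in females and 8583 and 1258 bp (22.8 and 35.9 tags per kb) in males. For Bckdk they were 2.79 and 0.405, with 2377 and 7415 bp (22.2 and 19.8 tags per kb) in females and 7172 and 2625 bp (28.8 and 31.9 tags per kb) in males. Ppm1k had ratios of 2.09 and 0.217, with 1565 and 2951 bp (16.5 and 18.3 tags per kb) in females and 2145 and 500 bp (25.8 and 24.0 tags per kb) in males.

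The same pattern was found at 8310 of the 10682 genes with peaks in both vehicle lists (77.8%), and the reverse at 3 genes. Over all genes with a vehicle peak day 4 over vehicle had a median of 2.14 in females, against 0.167 in males. Over whole lists, tags per kb of peak were 29.4 in female vehicle and 16.7 at day 4, and 27.9 and 80.9 in males. Without the peak of most tags in each list, on chromosome 2 and near none of these genes, they were 19.7 and 15.3 in females and 26.7 and 44.2 in males. On days 6 and 8 they were then 28.6 and 22.5 in females and 15.4 and 21.6 in males. The share of tags in peaks was 7.87% in female vehicle and 11.9% at day 4, and 18.5% and 10.3% in males. Without that peak it was 5.28% and 10.9% in females and 17.7% and 5.60% in males, and its part in these ratios was not tested.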

How the results depend on the processing

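No paired analysis was possible because each list pools the libraries of its group, and for the same reason no replicate could be left out. Of 132 values recomputed under alternatives, 106 kept within the limits set and 26 moved. Those within the limits included a fall from 9 to 6 genes with a peak in male day 6 at a fold of at least 4. They also included 16 female day 4 gains (23 as reported) and 9 male gains (6 as reported) at that fold. Another 20 recomputed values were start-site percentiles of Klf15, of which 13 moved, with a range of 34.6 to 99.7 over all 20. With lists of equal length by score, 5 genes had a peak in female day 6 (47.0% of all genes), start-site peaks numbered 5 and 3 at female days 4 and 6, peaks summed to 132 over the lists (243 as reported), 2 regions were in all lists (1.46% of regions at all genes), and day 4 gains were 8 in females and 11 in males, and start-site peaks gained from vehicle to day 4 were 2 in females and 1 in males. With a fold over input of at least 4, 3 regions were in all lists (1.21%) and 1 gene had a start-site peak in male day 6 (13.1% of all genes). Within 2 kb of a start alone, genes with a peak were 5 in female vehicle (32.2% of all genes) and 4 in male day 4 (33.5%), peaks summed to 67, regions in all lists were 2 (15.6%), and gains were 5 of 10 day 4 peaks in females (55.0% at all genes) and 1 of 5 in males (15.0%). Within 50 kb these were 526 peaks, 8 regions (3.16%) and gains of 58 of 79 peaks in females (80.2%) and 12 of 34 in males (39.9%). Predicted transcripts, or a window of 2 kb around the start, gave 5 genes with a start-site peak in female vehicle (26.3% and 32.2% of all genes), and the start base alone gave 2 in male day 6 (20.2%). By highest fold over input, the median start-site percentile fell from 61.1 to 46.9 and the gene and list pairs in the top 10% from 29 to 5. The list of lowest depth is male day 4, and the part of depth in these values was not tested. The causes of these changes were not tested.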
